A study of Homo sapiens with 18 samples.

Results

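WT1 is a zinc finger transcription factor that activates or represses its target genes, and BASP1 is a corepressor that binds it. With it were followed 4 proteins known to bind it. PAWR, also called Par-4, is a proapoptotic protein that binds the zinc fingers of WT1. WTAP, the WT1-associating protein, is a subunit of the complex that methylates adenosines of mRNA. CIAO1 is a WD40 protein that was first found through WT1 and that delivers iron-sulfur clusters to cytosolic and nuclear proteins. PHB2, prohibitin 2, forms ring-shaped scaffolds with its relative PHB1 in the inner mitochondrial membrane and also acts as a nuclear corepressor. In leukemia WT1 is often expressed at a high level, and its locus also carries an antisense gene, WT1-AS, that starts beside it and runs the opposite way.

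The 5 genes were found by symbol among the 28395 genes of the RNA-seq tables, and of the 85549 merged ATAC-seq regions the 15 within 5 kb of any of them were taken. Of these regions 8 lay at WT1, 5 at PHB2, 1 at WTAP and 1 at CIAO1, and none lay at PAWR. The cells were K562, a line from a chronic myelogenous leukemia that makes WT1 but no BASP1 of its own. V-K562 is the control line, B-K562 expresses wild type BASP1 (wtBASP1), and G-K562 expresses BASP1-G2A, in which the glycine that receives the N-terminal myristoyl group is replaced. All are stably transfected derivatives selected as a pool and grown with G-418, so each form of BASP1 was seen in 1 pool of cells, and an effect of the pool and an effect of the BASP1 form cannot be told apart. Each line had 3 RNA-seq and 3 ATAC-seq libraries, described as biological triplicates. The p-values measure the spread between cultures of 1 pool per line.

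In the RNA-seq tables the normalised read counts of a library summed to between 32074895 and 33229588, and in the 4 libraries where the size factor could be read back from the spacing of the values, 28914432 to 37039975 reads fell on genes. BASP1 checked the labels, with a mean normalised read count of 6.33 ± 1.15 (SD, n = 3) in V-K562, 6552 ± 335 in B-K562 and 9995 ± 2282 in G-K562. All 10 K562 marker genes were at 10 or more in every library. Their summed normalised read count was 69809 to 75627 in G-K562 and 223159 to 227161 in B-K562, against 129382 to 145367 in V-K562. TFRC went against that sum in G-K562, at 28864 to 35087 against 20453 to 22731 in V-K562, while the other markers were lower there. Of 13 markers of other cell types, CDH5 of endothelium was at 0 or 1 in every library, whereas EPCAM of epithelium was at 1129 to 1731 and COL1A1 of fibroblasts at 599 to 1297. The summed level of the 13 was 5951 to 6193 in G-K562 and 7027 to 7381 in B-K562, against 9493 to 9823 in V-K562. Its largest part was KRT19 of epithelium, at 2611 to 2810 in G-K562 against 5220 to 5304 in V-K562. Not all 13 moved with the sum, since PECAM1 of endothelium was at 524 to 624 in G-K562 against 443 to 496 in V-K562. Both sums moved with the lines, and their part in the results was not tested. In bulk libraries fewer cells that express a gene and less RNA per cell cannot be told apart.

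The sequences at the WT1 locus are given first, because the accessibility results turn on 3 windows there. They are read on the strand of WT1, the promoter being the 250 bases before the start in RefSeq (GRCh38.p14, chr11:32435540-32435789) and the others 201 bases around an ATAC-seq summit in GRCh38 (chr11:32434524-32434724 at the end of exon 1 and the beginning of intron 1, and chr11:32420924-32421124 in intron 3). Capitals mark matches on either strand to any of 8 motifs. The zinc fingers of WT1 and its EGR relatives are searched by the letters GCGTGGG and by the longer GCGGGGGCG, factors of the SP and KLF family by GGGCGG, ETS factors by CCGGAAG and the NFY complex by CCAAT. The others are AGATAA for GATA factors, the E-box CANNTG bound by basic helix-loop-helix proteins, and for AP-1 the letters TGANTCA. The zinc finger and GGGCGG motifs can overlap one another.
WT1 promoter: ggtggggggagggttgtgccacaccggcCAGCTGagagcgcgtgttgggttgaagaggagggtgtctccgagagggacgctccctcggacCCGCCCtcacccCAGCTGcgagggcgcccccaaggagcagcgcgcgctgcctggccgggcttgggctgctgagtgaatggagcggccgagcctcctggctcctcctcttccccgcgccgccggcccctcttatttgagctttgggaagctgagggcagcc
WT1 intron 1 summit: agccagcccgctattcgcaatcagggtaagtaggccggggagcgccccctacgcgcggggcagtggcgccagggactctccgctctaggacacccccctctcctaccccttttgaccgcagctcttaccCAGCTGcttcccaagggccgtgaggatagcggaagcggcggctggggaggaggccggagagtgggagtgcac
WT1 intron 3 summit: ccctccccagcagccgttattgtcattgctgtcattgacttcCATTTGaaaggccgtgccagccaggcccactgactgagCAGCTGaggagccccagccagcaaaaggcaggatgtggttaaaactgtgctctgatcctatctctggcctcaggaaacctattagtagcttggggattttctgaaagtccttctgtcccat
The WT1 promoter held 2 CANNTG and 1 GGGCGG, the intron 1 window 1 CANNTG and the intron 3 window 2 CANNTG. Matches of this kind are common, since CANNTG occurred in 61.8% of 35116 promoters of this length and in 65.4% of the 85549 summit windows, and GGGCGG in 42.6% of promoters and 20.3% of windows. The letters of GCGTGGG and GCGGGGGCG were not in these 3 windows. They occurred in 6.19% and 4.72% of promoters. The intron 3 window was 52.2% G and C, against 67.7% in intron 1 and 70.4% in the promoter.

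WT1 rose strongly in G-K562 cells and slightly in B-K562 cells. WT1 (Entrez gene 7490) lies on the minus strand at chr11:32387775-32435535 in GRCh38. In the table that holds V-K562 and B-K562, its normalised read count was 1267, 1172 and 1130 in the V-K562 libraries and 1348, 1369 and 1383 in the B-K562 libraries. The groups did not overlap, but the highest V-K562 library lay close to the lowest B-K562 library. In the table that holds V-K562 and G-K562, which was scaled separately, the count was 1286, 1190 and 1153 in V-K562 and 3218, 2906 and 3297 in G-K562. Every G-K562 library was more than 2-fold above every V-K562 library. The log2 fold change was 0.20 (SE 0.06, adjusted p = 0.0053) for B-K562 and 1.37 (SE 0.07, adjusted p = 1.8e-08) for G-K562, by limma on log2(value + 1) with Benjamini-Hochberg adjustment over all genes tested. Only the second passed the 2-fold criterion of the study. The direct comparison of G-K562 with B-K562, in which B-K562 values were multiplied by 1.017 to bring them to the scale of the other table, gave 1.17 (SE 0.06, adjusted p = 2.6e-10). Under quantile normalization the small rise in B-K562 became 0.11 with an adjusted p of 0.10. The counts are per gene and do not separate the isoforms of WT1.

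These numbers stand against a background of wide change. Of 14958 genes tested, 38.6% were higher and 37.2% lower in B-K562 than in V-K562 at an adjusted p of 0.05 or less. For G-K562 against V-K562 the shares of 15271 genes were 33.5% and 33.3%, and for G-K562 against B-K562 they were 38.1% and 40.5% of 15521 genes. A rise of at least 2-fold was called for 6.46% of genes in B-K562 and 8.81% in G-K562 over V-K562, and for 17.4% in G-K562 over B-K562. With its 1.37, WT1 was at rank 795 of 15271 genes from the top in G-K562, within the highest 5.21% of changes. In B-K562, by contrast, 38.9% of the genes changed by as much as WT1 or more in the upward direction. All 4 member genes that could be tested were higher in B-K562 than in V-K562, whereas in G-K562 1 was higher, 1 was lower and 2 were not called.

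PAWR was hardly detected. PAWR (Entrez gene 5074, minus strand, chr12:79587791-79691010) was listed at 2, 0 and 1 in V-K562 and at 3, 0 and 0 in B-K562 in 1 table, and at 2, 0 and 1 in V-K562 and at 0 in all 3 G-K562 libraries in the other. These values are below the minimum of 10 in 3 libraries, so PAWR entered no test and no fold change is given. No ATAC-seq region was found within 5 kb of the gene, and the nearest lay 93386 bp away, with a peak in 9 of 9 libraries. The promoter is shown because a reader would look for a peak there (RefSeq, GRCh38.p14, chr12:79690965-79691214, minus strand, capitals as above).
PAWR promoter: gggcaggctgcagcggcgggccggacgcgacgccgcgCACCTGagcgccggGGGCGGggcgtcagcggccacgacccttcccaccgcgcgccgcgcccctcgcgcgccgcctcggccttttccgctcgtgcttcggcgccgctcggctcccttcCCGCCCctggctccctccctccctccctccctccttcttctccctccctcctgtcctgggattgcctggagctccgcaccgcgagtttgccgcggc
It was 77.2% G and C with 36 CpG dinucleotides, against 19 in the WT1 promoter, and held 2 GGGCGG and 1 CANNTG.

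WTAP was moderately higher in B-K562. WTAP (Entrez gene 9589, plus strand, chr6:159726998-159756319) had a normalised read count of 3439, 3496 and 2996 in V-K562 and of 4070, 4030 and 4057 in B-K562. The groups did not overlap, and V-K562 replicate 3 was the lowest library. WTAP rose by 0.30 on the log2 scale (SE 0.06, adjusted p = 0.00036). In the other table the count was 3491, 3550 and 3057 in V-K562 and 3668, 3846 and 3660 in G-K562. These groups did not overlap either, but the log2 fold change of 0.15 did not pass the test (adjusted p = 0.066, 95% interval of the difference 0.00 to 0.29). G-K562 was lower than B-K562 by a log2 fold change of -0.15 (adjusted p = 0.028), a call that was lost without B-K562 replicate 1, 2 or 3 or G-K562 replicate 1 or 3, with adjusted p-values up to 0.077, and under quantile normalization, with -0.02 and an adjusted p of 0.72.

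CIAO1 rose in B-K562 and not detectably in G-K562. CIAO1 (Entrez gene 9391, plus strand, chr2:96266146-96274179) had a normalised read count of 3472, 3493 and 3365 in V-K562 and of 5302, 5263 and 5209 in B-K562. The lowest B-K562 library lay far above the highest V-K562 library. Its rise of 0.61 on the log2 scale (SE 0.04, adjusted p = 2.1e-08) corresponds to 1.53-fold, and 17.3% of genes rose by as much or more. In the other table the count was 3525, 3547 and 3433 in V-K562 and 3614, 3447 and 3716 in G-K562. These groups overlapped, and the difference of 0.04 had a 95% interval of -0.08 to 0.16 (adjusted p = 0.57). The direct comparison gave -0.57 for G-K562 against B-K562 (SE 0.04, adjusted p = 2.3e-08).

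PHB2 moved in opposite directions in the lines. PHB2 (Entrez gene 11331, minus strand, chr12:6965352-6970823) had a normalised read count of 8506, 8348 and 8294 in V-K562 and of 9410, 9256 and 8932 in B-K562. The groups did not overlap, and the rise was small, with a log2 fold change of 0.13 (adjusted p = 0.012). This call was lost without B-K562 replicate 1 (adjusted p = 0.062), without B-K562 replicate 2 (adjusted p = 0.06) and under quantile normalization, where the change was 0.02. In the other table the count was 8636, 8476 and 8462 in V-K562 and 6746, 6906 and 6913 in G-K562. Every G-K562 library was below every V-K562 library, and the log2 fold change was -0.31 (adjusted p = 0.00017). Between G-K562 and B-K562 the difference was -0.45 (SE 0.04, adjusted p = 1.7e-07).

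**Figure D1:**
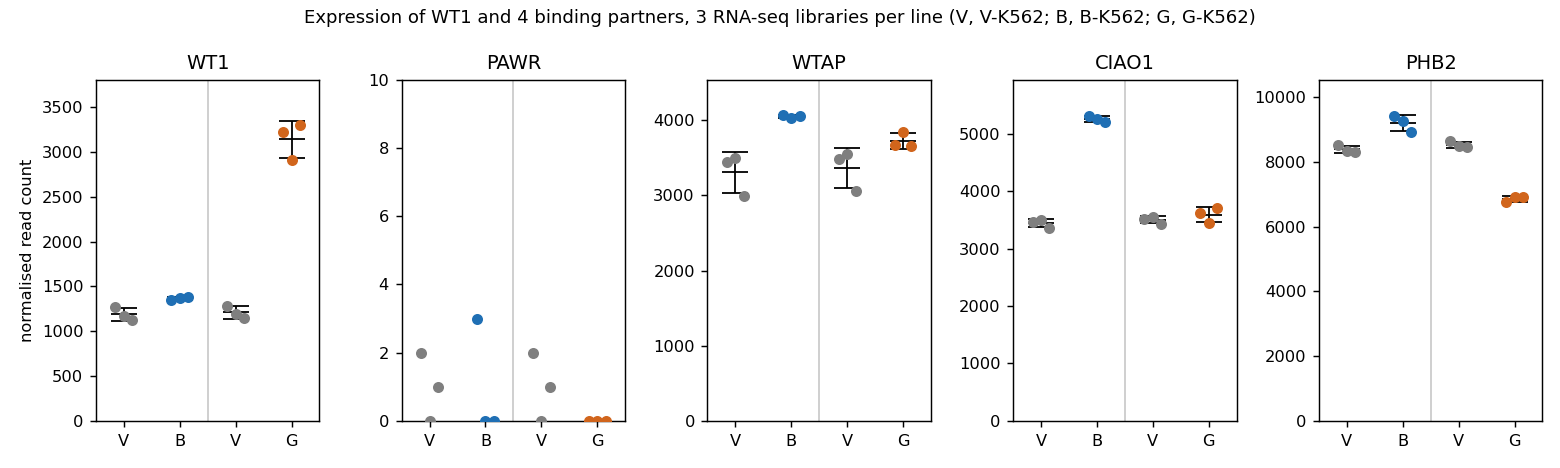
Normalised read counts (y axis, from 0, a scale of its own per gene) of WT1, PAWR, WTAP, CIAO1 and PHB2 in the 3 libraries of each line. Each panel shows the table of V-K562 and B-K562 left of the grey line and the table of V-K562 and G-K562 right of it, with points for libraries and bars for mean ± SD (none for PAWR). WT1 stood out in G-K562 at 2906 to 3297, CIAO1 in B-K562 at 5209 to 5302, and PHB2 was lowest in G-K562 at 6746 to 6913.

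The order of the genes by level changed in G-K562. Levels between genes were compared per kb of merged exons on the scale of the table with G-K562. In V-K562 the level was 365 ± 20.7 (SD, n = 3) normalised reads per kb for WT1, 582 ± 46.6 for WTAP, 864 ± 14.9 for CIAO1 and 5330 ± 60.4 for PHB2, with no overlap between neighbours in this order. PHB2 was at rank 324 of 15521 genes in V-K562 and WT1 at rank 5247. In B-K562 the order was the same, with 419 ± 5.4 for WT1, 713 ± 3.59 for WTAP, 1320 ± 11.7 for CIAO1 and 5850 ± 155 for PHB2. In G-K562 the level of WT1 was 947 ± 62.4, above WTAP at 644 ± 18.2, and its range of 877 to 995 overlapped that of CIAO1 at 850 to 917. Within a library, the level of WTAP over that of WT1 was 0.636 to 0.759 in G-K562 and 1.68 to 1.73 in B-K562, against 1.52 to 1.71 in V-K562. The level of PHB2 over that of WT1 was 4.34 to 4.92 in G-K562 and 13.4 to 14.5 in B-K562, against 13.9 to 15.2 in V-K562. PAWR was at 0.274 reads per kb or less in every library.

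Among the 5 genes that followed WT1 most closely across the 9 RNA-seq libraries, by Pearson correlation of log2(value + 1), were FEZ1 (r = 0.998), PLEKHG2 (0.997), CD47 (0.997) and MYEOV (0.996), with Spearman rho of 0.917, 1.0, 0.967 and 0.95. FEZ1, an adaptor of axonal transport, was at 902 to 1178 in G-K562 and 180 to 197 in B-K562, against 117 to 145 in V-K562. CD47, the surface signal that inhibits phagocytosis, was at 4739 to 5391 in G-K562, against 1890 to 2108 in V-K562 and 2173 to 2203 in B-K562. With 3 lines of 3 libraries each, a gene that is high in G-K562 has a high r with WT1 whatever its function, and the libraries share their scaling. The binding partners did not follow WT1 closely, with r of 0.132 for WTAP, -0.317 for CIAO1 and -0.898 for PHB2. Their Spearman rho was 0.417, 0.317 and -0.433, so the sign for CIAO1 depended on the measure.

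ATAC-seq measures how open chromatin is through the insertion of a transposase. The deposited intervals carry the tag pileup at the summit in libraries sampled to equal tags, and peaks were called per library. A library without a peak in a region was set to a floor of 17. Pileups are given as deposited, and fold changes after trimmed-mean scaling between libraries. Without that scaling the median log2 fold change of all regions moved from -0.06 to 0.06 for B-K562 and from -0.09 to 0.19 for G-K562 against V-K562, so changes are read relative to that shift. Of 52204 regions tested for B-K562 against V-K562, 8.69% were higher and 16.5% lower. For G-K562 against V-K562 the shares were 16.2% and 25.8% of 54213, and for G-K562 against B-K562 12.4% and 15.5% of 60181. Of the regions within 5 kb of the member genes, 3 of 11 tested rose in B-K562 and 5 of 11 in G-K562 over V-K562, and 3 of 12 when G-K562 was set against B-K562. None was called lower by limma in these comparisons, and at an unadjusted p under 0.05 the counts of lower regions were 0, 1 and 1.

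Inside WT1 the chromatin was more open in G-K562 at 2 places. The region in intron 3 (chr11:32420843-32421513, summit 14515 bp from the start) had a summit pileup of 29, 33 and 26 in V-K562, of 37, 32 and 33 in B-K562 and of 77, 75 and 106 in G-K562. The G-K562 libraries lay apart from all others, and V-K562 and B-K562 lay close together. The log2 fold change over V-K562 was 0.06 (adjusted p = 0.83) in B-K562 and 1.17 (SE 0.19, adjusted p = 0.0022) in G-K562, and 1.09 (SE 0.18, adjusted p = 0.0013) for G-K562 over B-K562. A rise of at least 2-fold was called for 2.92% and 4.32% of all regions in these last comparisons. The region across the border of exon 1 and intron 1 (chr11:32434305-32434898, summit 915 bp from the start) had a pileup of 51, 77 and 73 in V-K562, of 60, 74 and 86 in B-K562 and of 153, 158 and 159 in G-K562. It rose in G-K562 over V-K562 by 0.89 (SE 0.16, adjusted p = 0.0035) and over B-K562 by 0.89 (SE 0.17, adjusted p = 0.0041), while the difference of B-K562 from V-K562 was -0.01 (adjusted p = 0.97). Both regions kept their calls in G-K562 under every alternative run.

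The start of WT1 behaved otherwise. The region there (chr11:32435473-32435945, summit 141 bp upstream of the annotated start) also holds the start of WT1-AS. Its pileup was 37, 44 and 40 in V-K562, 83, 64 and 59 in B-K562 and 61, 85 and 89 in G-K562. The V-K562 libraries were below all others, and the BASP1 lines overlapped. The log2 fold change was 0.59 in B-K562 (SE 0.18, adjusted p = 0.042) and 0.59 in G-K562 (SE 0.19, adjusted p = 0.038), with -0.03 between the BASP1 lines (adjusted p = 0.98). The call in B-K562 was lost without any of its 6 libraries in turn (adjusted p up to 0.14), and that in G-K562 without any but G-K562 replicate 1 (adjusted p up to 0.11). With scaling within bins of GC content, both fell short, at 0.41 (adjusted p = 0.15) and 0.31 (adjusted p = 0.20).

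The remaining WT1 regions did not pass the test. The region at 8510 bp in intron 3 (chr11:32426784-32427384) had 40, 37 and 39 in V-K562, 59, 52 and 45 in B-K562 and 37, 58 and 52 in G-K562. A region at 1587 bp in intron 1 had a peak in 1 V-K562 and 2 B-K562 libraries, at pileups of 37 to 44. Beyond the end of the gene, a region at 48627 bp from the start had a peak in 8 libraries at 37 to 58, all but G-K562 replicate 3, which entered the fit at the floor. Its log2 fold change of -0.87 in G-K562 (adjusted p = 0.059) rested on that floor, and without G-K562 replicate 2 it became -1.05 (adjusted p = 0.04). The next region, at 49379 bp, had a peak in 2 V-K562 libraries and 1 G-K562 library at 31 to 36. The last, at 52723 bp, had 1 peak, of 34, in G-K562 replicate 3, and was not tested. At 4854 bp from the end of the gene it was also the farthest region inside the 5 kb limit, while just outside it a region 5019 bp from CIAO1 had 111 to 129 in G-K562 and 51 to 57 in B-K562, against 73 to 77 in V-K562.

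**Figure D2:**
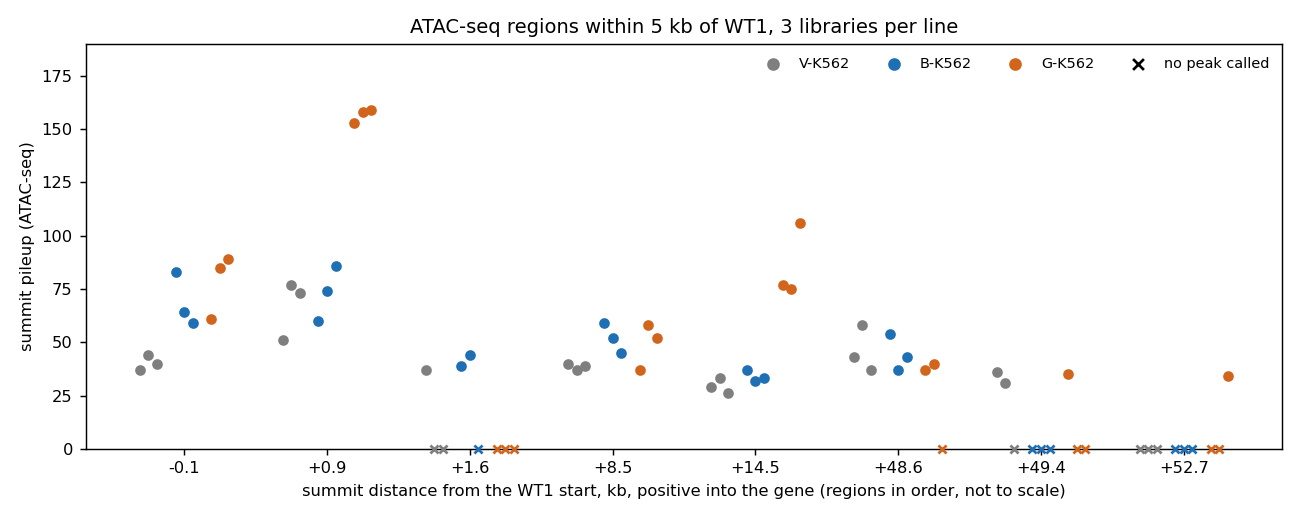
Summit pileup of ATAC-seq (y axis) of the 8 regions within 5 kb of WT1 in each of 9 libraries, ordered by the distance of the summit from the WT1 start in kb (x axis, positive into the gene, not to scale). Crosses at 0 mark libraries with no peak called. G-K562 stood above both other lines at 915 bp (153 to 159) and 14515 bp (75 to 106), and V-K562 stood below both BASP1 lines at the start (37 to 44).

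At the starts of the partner genes the BASP1 lines were level with or above V-K562 in the main fits. The CIAO1 start region (chr2:96265785-96266586) had a pileup of 246, 256 and 273 in V-K562, of 378, 331 and 331 in B-K562 and of 485, 480 and 550 in G-K562. The lines did not overlap and lay in this order. The log2 fold change was 0.27 (adjusted p = 0.039) in B-K562, 0.62 (SE 0.07, adjusted p = 0.00064) in G-K562 and 0.33 (SE 0.07, adjusted p = 0.0077) for G-K562 over B-K562. The B-K562 call was lost without any of its 6 libraries in turn (adjusted p up to 0.11). The region is 71.9% G and C, and scaling within bins of GC content gave -0.03 in B-K562 (adjusted p = 0.88), 0.21 in G-K562 (adjusted p = 0.079) and 0.24 between them (adjusted p = 0.085). CIAO1 transcripts were called higher in B-K562 and not in G-K562, while its start was most open in G-K562. The region also holds the start of TMEM127, a regulator of endosomes that runs the opposite way, whose normalised read count was 1375, 1383 and 1470 in V-K562 and 1422, 1454 and 1499 in B-K562 in one table, and 1396, 1404 and 1500 in V-K562 and 2898, 2426 and 2825 in G-K562 in the other. TMEM127 did not differ by the test in B-K562 (0.05, adjusted p = 0.40) and rose in G-K562 (0.92, SE 0.07, adjusted p = 7.8e-07). The CIAO1 promoter is shown because both genes start there (RefSeq, GRCh38.p14, chr2:96265975-96266224, plus strand, capitals as above).
CIAO1 promoter: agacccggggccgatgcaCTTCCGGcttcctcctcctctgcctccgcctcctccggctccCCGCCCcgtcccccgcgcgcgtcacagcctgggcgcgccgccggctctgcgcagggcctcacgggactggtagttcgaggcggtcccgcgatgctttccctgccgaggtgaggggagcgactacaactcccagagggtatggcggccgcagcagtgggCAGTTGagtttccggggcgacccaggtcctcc
It held 1 CCGGAAG, a motif found in 8.52% of promoters, 1 GGGCGG and 1 CANNTG.

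The PHB2 start region (chr12:6970485-6971103) had a pileup of 103, 99 and 81 in V-K562, of 182, 144 and 136 in B-K562 and of 177, 171 and 194 in G-K562. All V-K562 libraries were below the others, and the BASP1 lines overlapped. The log2 fold change was 0.55 (SE 0.14, adjusted p = 0.024) in B-K562 and 0.59 (SE 0.12, adjusted p = 0.0060) in G-K562, and 0.03 (adjusted p = 0.95) between them. The B-K562 call was lost without B-K562 replicate 1, V-K562 replicate 2 or V-K562 replicate 3 (adjusted p up to 0.07). It was also lost with scaling within bins of GC content, and held in 9 of 13 alternatives (adjusted p up to 0.09). The G-K562 call held in all 13. PHB2 transcripts were slightly higher in B-K562 and lower in G-K562, over a start that was more open in G-K562 and, less stably, in B-K562. EMG1, a methyltransferase of ribosomal RNA that starts in the same region on the other strand, was at 842, 753 and 677 in V-K562 and at 1469, 1512 and 1554 in B-K562, which was a rise of 1.0 on the log2 scale (SE 0.07, adjusted p = 2.9e-08). In the other table it was at 855, 764 and 691 in V-K562 and at 688, 727 and 653 in G-K562 (-0.16, adjusted p = 0.14). TMEM127 and EMG1 were named after their values were seen, because their starts lie in these regions. Downstream of PHB2, the regions at 8680 bp and 5480 bp from its start had peaks in all 9 libraries, at 62 to 95 and 45 to 73, and passed no test. A further pair of regions there had peaks in 2 V-K562 libraries (46 and 56) and in 1 G-K562 library (47) and were not tested.

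The WTAP start region (chr6:159726733-159727974) had a pileup of 129, 144 and 148 in V-K562, of 172, 168 and 176 in B-K562 and of 204, 200 and 202 in G-K562. The lines did not overlap as deposited, but after scaling the log2 fold changes of 0.14 in B-K562 (adjusted p = 0.25) and 0.18 in G-K562 (adjusted p = 0.12) did not pass the test. Without scaling they were 0.29 (adjusted p = 0.04) and 0.52 (adjusted p = 0.0023). That was the only 1 of 13 alternatives that gave a call in either line. Over all 13 the change ran from -0.15 to 0.29 in B-K562 and from -0.22 to 0.52 in G-K562, so its direction depended on the processing.

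**Figure D3:**
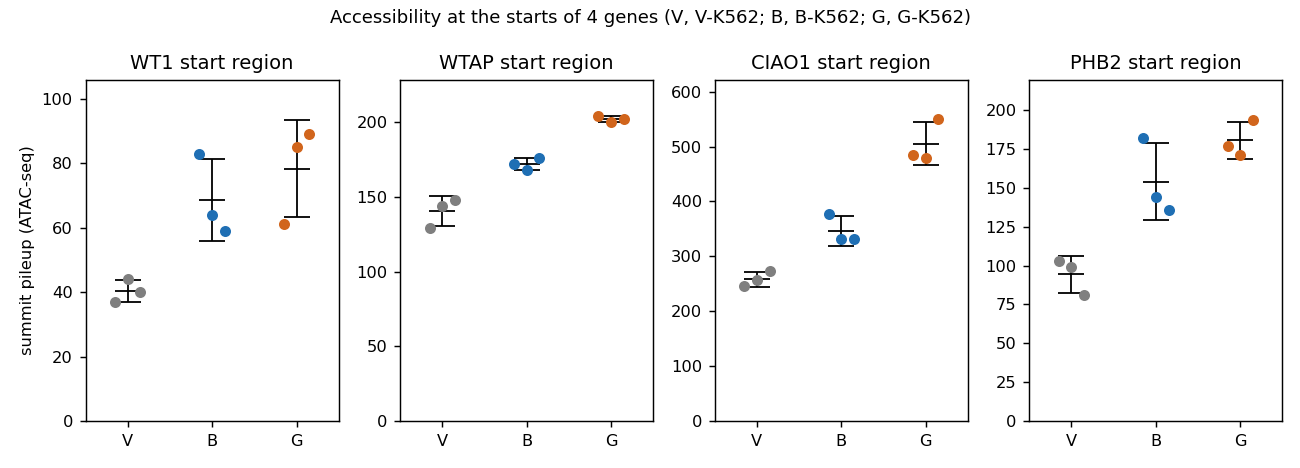
Summit pileup of ATAC-seq (y axis, from 0, a scale of its own per gene) in the region that holds the start of WT1, WTAP, CIAO1 or PHB2, with 3 libraries per line as points and mean ± SD as bars. As deposited, V-K562 was lowest at each start, and the pileup at the CIAO1 start reached 480 to 550 in G-K562.

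Several genes around WT1 also rose in G-K562. Of the 19 genes whose start lies within 1 Mb of WT1, 15 were tested for G-K562 against V-K562, of which 8 were higher (53.3%, against 33.5% of all genes) and 3 lower (20%, against 33.3%), with a median log2 fold change of 0.44 (0.00 over all genes). For B-K562, 13 were tested, of which 3 were higher (23.1%, against 38.6%) and 7 lower (53.8%, against 37.2%), with a median of -0.17 (0.01 over all genes). WT1-AS, the antisense gene, was at 297, 307 and 352 in V-K562 and at 176, 225 and 172 in B-K562. In the other table it was at 302, 311 and 359 in V-K562 and at 748, 618 and 834 in G-K562. It fell in B-K562 (-0.74, SE 0.11, adjusted p = 4.7e-05), unlike WT1, and rose in G-K562 (1.17, SE 0.11, adjusted p = 3.5e-06), like WT1. The annotated genes overlap by 18 bp, and whether the reads were counted by strand is not given in the sources used here. PAX6, an eye and pancreas transcription factor, had a log2 fold change of -1.40 in B-K562 (SE 0.09, adjusted p = 5.4e-09) and 1.21 in G-K562 (SE 0.07, adjusted p = 5e-08). RCN1, a calcium-binding protein of the endoplasmic reticulum, had -0.58 (adjusted p = 1.6e-05) and 1.38 (adjusted p = 1.1e-07). Also at least 2-fold higher in G-K562 were DKFZp686K1684 (1.39, adjusted p = 0.0059) and CSTF3-AS1 (1.28, adjusted p = 0.0022), both at 41 normalised reads or fewer. Of 36 ATAC-seq regions tested within 1 Mb of WT1 in G-K562, 12 rose (33.3%, against 16.2% of all regions) and 2 fell (5.56%, against 25.8%), with 2 rising at least 2-fold (2.92% of all regions did). These counts include the regions of WT1 itself given above. Its intron 3, intron 1 and start regions were among the 12, and the intron 3 region was among those rising 2-fold. Also among the 12 was a region at the RCN1 start, with 26, 28 and 32 in G-K562 and no peak in V-K562. It was tested only through its G-K562 peaks, against V-K562 at the floor. Of 30 tested in B-K562, 2 rose (6.67%), close to the 8.69% of all regions, and 0 were called lower, against 16.5% of all regions. The WT1 start region was among those 2.

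**Figure D4:**
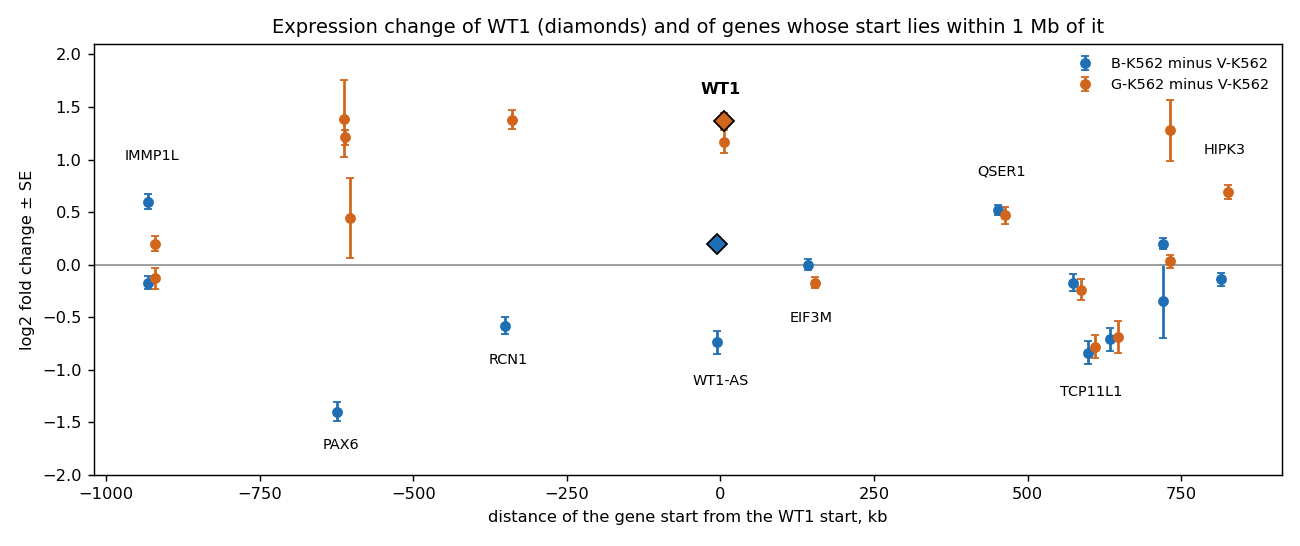
Log2 fold change ± SE (y axis) of WT1 (diamonds) and its tested neighbours (circles) in B-K562 and G-K562 against V-K562, by the distance of each gene start from the WT1 start in kb (x axis). PAX6, RCN1 and WT1-AS lay below 0 in B-K562 (-1.40, -0.58 and -0.74) and above 1 in G-K562 (1.21, 1.38 and 1.17). The points share the V-K562 libraries, and the labels were chosen after the values were seen.

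The genes that work with each partner were counted in lists, whose counts are read against the shares of all genes called, 38.6% higher and 37.2% lower in B-K562 and 33.5% higher and 33.3% lower in G-K562. Other WT1-binding proteins moved in both directions. Of 18 tested of 19, 10 were higher (55.6%) and 4 lower (22.2%) in B-K562 (median 0.23) and 8 were higher (44.4%) and 4 lower (22.2%) in G-K562 (median 0.09). TP73, a relative of p53, was at 277 to 287 in V-K562 and fell to 64 to 81 in B-K562 (-1.94, adjusted p = 3.9e-09), and rose to 538 to 673 in G-K562 (1.09, adjusted p = 1.5e-06). TP63, the other relative, rose in both, by 0.31 (adjusted p = 0.023) and 1.29 (adjusted p = 5.1e-07). AMER1, a WNT pathway regulator, rose in B-K562 by 1.61 (adjusted p = 8.3e-10) and was lower in G-K562 by -0.65 (adjusted p = 0.00095). FHL2, a LIM domain coactivator, was at 1341 to 1387 in V-K562 and fell to 100 to 108 in G-K562 (-3.72, SE 0.08, adjusted p = 6.8e-11), with -0.37 in B-K562 (adjusted p = 2.5e-05).

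WTAP's list, the writers, erasers and readers of N6-methyladenosine, was mostly higher in B-K562. Of 17 tested, 11 were higher (64.7%) and 1 lower there (median 0.34), and 4 were higher (23.5%) and 6 lower (35.3%) in G-K562 (median -0.04), where the lower share was close to that of all genes. Between G-K562 and B-K562, 14 were lower (82.4%, against 40.5% of all genes) and none higher (against 38.1%) by limma, also at an unadjusted p under 0.05. Under quantile normalization, however, 12 were lower and 1 higher. None changed 2-fold against V-K562. RBM15B, which recruits the methylase, rose by 0.88 in B-K562 (adjusted p = 3.3e-09) and 0.47 in G-K562 (adjusted p = 3.4e-05). IGF2BP1 and YTHDF2, which bind the methylated RNA, rose by 0.77 and 0.66 in B-K562 (adjusted p = 3.3e-08 and 3.5e-08). METTL3, the catalytic subunit, and ALKBH5, a demethylase, fell by 0.51 and 0.53 in G-K562 on the log2 scale (adjusted p = 2.6e-05 and 0.00016).

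Most of the cytosolic iron-sulfur assembly genes that work with CIAO1 rose in B-K562. Of 8 tested, 7 were higher (87.5%) and none lower by limma, also at an unadjusted p under 0.05 (median 0.46), and the remaining gene, MMS19, had 0.07 (adjusted p = 0.15). Under quantile normalization 5 of 8 were higher in B-K562. In G-K562 3 were higher (37.5%) and 2 lower (25%), with a median of 0.15, which was close to the shares of all genes. NDOR1 and CIAPIN1, which pass electrons to the assembly machinery, rose by 0.92 (adjusted p = 9.9e-10) and 0.88 (adjusted p = 1.4e-09) in B-K562, and NUBP2, a scaffold subunit, by 0.53 (adjusted p = 2.7e-07). In G-K562 NDOR1 rose by 0.65 (adjusted p = 2.9e-06) and CIAO3 by 0.43 (adjusted p = 0.00015), whereas MMS19, the targeting partner of CIAO1, fell by 0.41 on the log2 scale (adjusted p = 4.4e-05).

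Most prohibitin partners and inner-membrane proteases were higher in B-K562 and lower in G-K562. Of 8 tested, 7 were higher in B-K562 (87.5%, median 0.38) and 6 lower (75.0%) and 1 higher in G-K562 (median -0.23). Of these, 5 were both higher in B-K562 and lower in G-K562, as PHB2 was, while OPA1 was not called in B-K562 (0.03, adjusted p = 0.58), SPG7 was not called in G-K562 (-0.13, adjusted p = 0.056) and OMA1 was higher there (0.24, adjusted p = 0.035). Of the 14754 genes tested in all 3 comparisons, 22.3% had opposite calls in either direction and a called direct difference. All 8 were lower in G-K562 than in B-K562 (100%, against 40.5% of all genes, median -0.76). Under quantile normalization 5 were higher and 1 lower in B-K562, and 7 of 8 were lower in G-K562 than in B-K562. PHB1, the partner in the ring, was at 4205 to 5038 in V-K562 and 8646 to 8803 in B-K562 (0.90, adjusted p = 1.3e-08), and at 3349 to 4009 in G-K562 (-0.40, adjusted p = 0.0011). STOML2, a related membrane protein, and OMA1, a protease that cleaves OPA1, rose in B-K562 by 0.60 (adjusted p = 2.6e-07) and 0.45 (adjusted p = 5.6e-05). PARL and YME1L1, which are proteases, fell in G-K562 by 0.73 (adjusted p = 4.5e-06) and 0.62 (adjusted p = 1.5e-06) on the log2 scale.

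Genes that act with PAWR were expressed although PAWR itself was near 0. Of 10 tested, 3 were higher (30%) and 2 lower (20%) in B-K562 (median -0.01), both below the shares of all genes, and 3 were higher (30%) and 5 lower (50%) in G-K562 (median -0.14). HSPA5, the chaperone that binds PAWR at the cell surface, was at 58398 to 68484 in V-K562 and 26543 to 28125 in B-K562 (-1.21, adjusted p = 9.1e-10). In G-K562, AKT1, a kinase that phosphorylates PAWR, rose by 1.03 (adjusted p = 2.3e-08), and PRKCZ, a kinase that PAWR inhibits, fell by 1.06 on the log2 scale (adjusted p = 1.3e-06). UACA was at 17 to 21 in V-K562 and 1 or 2 in G-K562 (adjusted p = 2.9e-05), too low for its fold change to be given.

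Of the factors that regulate WT1 in blood cells, 9 of 10 were tested, with 6 higher (66.7%) and 3 lower (33.3%) in B-K562 (median 0.22) and 4 higher (44.4%) and 3 lower (33.3%) in G-K562 (median 0.04). Both lower shares were close to those of all genes. NFKB1 rose in B-K562 by 1.22 (adjusted p = 1e-08) and PAX8 fell there by 1.33 on the log2 scale (adjusted p = 1.9e-06). LMO2, an adaptor of the erythroid factor complex, was at 1732 to 1909 in V-K562 and 677 to 848 in G-K562 (-1.26, adjusted p = 1.7e-07). GATA1, TAL1 and LMO2 of this list are also among the K562 markers. EGR factors bind a motif close to that of WT1, and of the 3 tested 1 was higher in B-K562 and 2 in G-K562. EGR3 was at 195 to 353 in G-K562 and 22 to 27 in B-K562, against 22 to 30 in V-K562, and rose in G-K562 over V-K562 (3.28, SE 0.21, adjusted p = 1.3e-07). EGR2 rose there from 16 to 28 in V-K562 to 45 to 111 (1.61, adjusted p = 0.00093), with 10 to 18 in B-K562. EGR1 was at 6513 to 9140 in V-K562 and 10180 to 11467 in B-K562, where it rose (0.49, adjusted p = 0.0003). In G-K562 it was at 5720 to 9305 and did not pass the test against V-K562 (-0.15, adjusted p = 0.43), but was lower than in B-K562 (-0.64, adjusted p = 0.00093).

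Of 35 genes known as WT1 targets, 26 were tested in each comparison with V-K562. In B-K562 9 were higher (34.6%) and 11 lower (42.3%), close to the 38.6% and 37.2% of all genes, with 6 lower by at least 2-fold (14.1% of all genes were). In G-K562 11 were higher (42.3%, against 33.5% of all genes) and 7 lower (26.9%, against 33.3%). By at least 2-fold, 5 of the 26 were higher, against 8.81% of all genes, and 4 of the 26 lower, against 10.3% of all genes. The median was -0.13 in B-K562 and 0.07 in G-K562. In B-K562 the falls were led by NPHS1, a slit diaphragm protein of the kidney (-3.14, adjusted p = 1.6e-08), ETS1 (-2.91, adjusted p = 2.7e-11) and AREG, an EGF receptor ligand (-2.56, adjusted p = 1.7e-10). The largest rises there were EPOR, the erythropoietin receptor (0.96, adjusted p = 2.7e-09), HNRNPU (0.88, adjusted p = 1.4e-08) and AMH, anti-Müllerian hormone (0.86, adjusted p = 7.8e-07). In G-K562 the rises were led by PDGFA, a growth factor, from 163 to 195 in V-K562 to 979 to 1083 (2.51, adjusted p = 1.5e-09), EREG, another EGF receptor ligand (2.46, adjusted p = 5.9e-06), and BCL2, an inhibitor of apoptosis (2.42, adjusted p = 2.7e-06). The falls were led by ETS1 (-2.31, adjusted p = 6.4e-07), TERT, the catalytic subunit of telomerase (-2.19, adjusted p = 1.2e-05), and MYC (-1.48, adjusted p = 5.7e-09). Between G-K562 and B-K562, EREG, PDGFA and AREG were the most raised (4.15, 3.15 and 3.07) and TERT, DUSP6 and MYC the most lowered (-3.03, -2.92 and -1.54), with adjusted p-values of 5.5e-05 or less. EREG was at 0, 5 and 12 in B-K562 and DUSP6 at 1 to 4 in G-K562, so the size of those changes depends on the pseudocount.

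**Figure D5:**
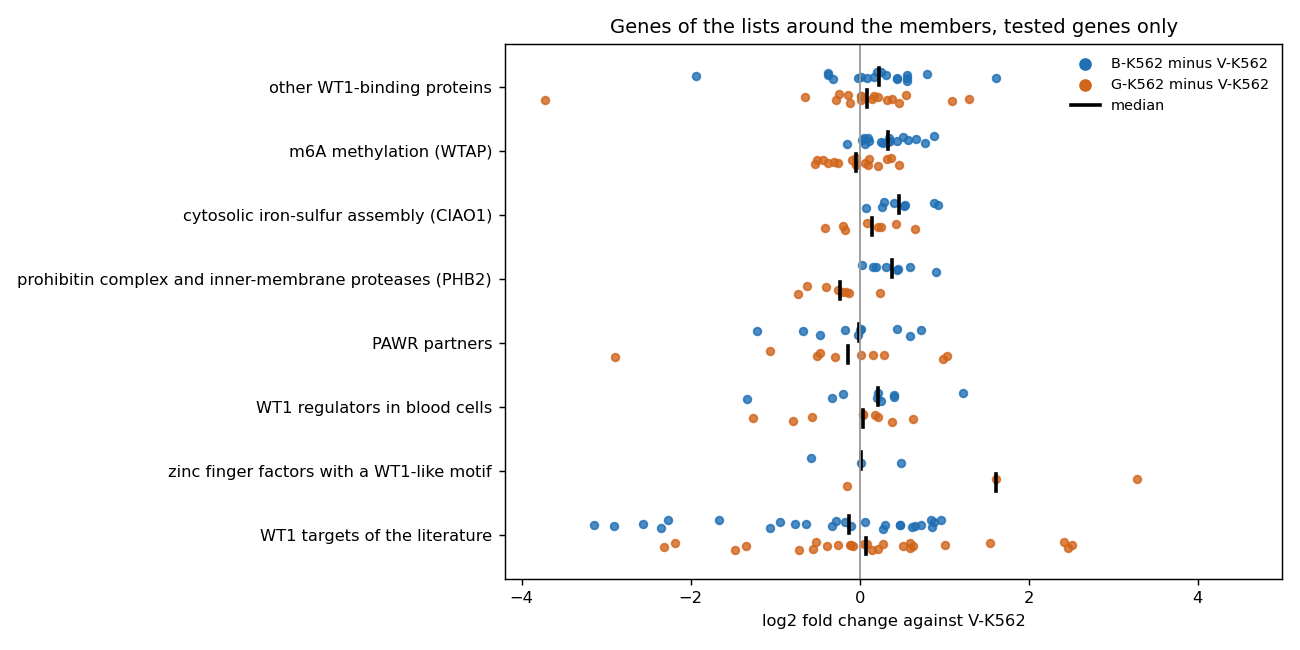
Log2 fold change against V-K562 (x axis) of the tested genes of 8 lists (rows), in B-K562 and G-K562, with the median of each list as a black bar. The prohibitin list had a median of 0.38 in B-K562 and -0.23 in G-K562, and the WT1 targets spread from -3.14 to 2.51. Both colours share the V-K562 libraries.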

How the data were processed

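The RNA-seq and ATAC-seq libraries of the control line V-K562 and of the lines B-K562 and G-K562 were analysed, 3 per line and assay. Per the methods of the study, the authors mapped RNA-seq pairs from a stranded mRNA kit to GRCh38 with STAR, removed duplicates and assigned unique pairs to RefSeq genes with Subread. The deposited expression values are a score per gene, namely counts divided by the DESeq2 size factors of the authors and rounded, in 1 table per comparison with V-K562, so no count model was used. The deposited exon lengths served for levels per kb, and the authors' own fold changes and p-values in the tables were not used. For ATAC-seq the authors used BWA-MEM, sampled libraries to equal tags and called the peaks of each library separately with MACS2. The deposited peak values are a signal, the tag pileup.

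Values were tested with limma 3.58.1 (R 4.3.3) with a trend on log2(value + 1), for genes at 10 or more in 3 libraries of the fit, with Benjamini-Hochberg adjustment over all genes tested and a threshold of 0.05. Fold changes are on that log2 scale, which understates changes of low genes. G-K562 was compared with B-K562 over all 9 libraries. ATAC-seq peaks were merged into 85549 regions, valued by the highest summit pileup, scaled by trimmed means (30% of log ratios, 5% of means), with 17, the 5th percentile of all pileups, as floor, and tested where 3 libraries had a peak. Each deposited start counts from 0 and was moved to count from 1. The fits were tested on simulated data. Alternatives were other pseudocounts, filters, normalizations, floors, windows and sets of libraries, and the replicate number as a block. The members and lists were chosen with earlier results of these data known. Named were all members and their regions. Of lists of up to 19 genes, those changed at least 2-fold against V-K562 were named, or else up to 3 with the largest change, and of the WT1 targets the 3 largest rises and falls per comparison. Genes most like WT1 were the top 5 by Pearson correlation, of which 1 is not reported here. Regions were placed on GENCODE v44, and promoters were taken from RefSeq (GRCh38.p14). Protein sequences were not used here.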

Additional observations from a re-analysis of the deposited data

Results flagged for a closer look

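For 27 of the 115 genes of the members, lists and neighbours of WT1 that were tested in all 3 comparisons, the change against V-K562 went opposite ways in B-K562 and G-K562, each past the threshold, and the direct comparison of G-K562 with B-K562 by limma also passed it. That is 23.5% of them, close to the 22.3% of the 14754 genes tested in all 3 comparisons that did the same. Both changes of a gene were measured against the same V-K562 libraries. The differences are given as G-K562 minus B-K562 on the log2 scale, with adjusted p-values of 0.00012 or less.

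Higher in B-K562 and lower in G-K562 were 15 genes. PHB2, the only member among them, had a difference of -0.45, although its rise in B-K562 alone was lost in some alternatives. In its list, the differences were -1.30 for PHB1, -0.81 for STOML2, -0.70 for AFG3L2, -0.81 for YME1L1 and -0.89 for PARL. Among the genes that methylate adenosines with WTAP, METTL3 had -0.78 and VIRMA -0.68, and among those of iron-sulfur assembly CIAPIN1 had -1.05. AMER1 and HDAC1, which bind WT1, had -2.26 and -0.54. GATA1, TAL1 and LMO2, erythroid factors, had -0.78, -1.04 and -1.66, and TERT had -3.03.

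Lower in B-K562 and higher in G-K562 were 12 genes. Of these, 5 lie within 1 Mb of WT1, out of 13 neighbours tested in all 3 comparisons. The share of all genes in this direction alone was not counted. WT1 itself was higher in both BASP1 lines, though its rise in B-K562 was lost under quantile normalization. The differences of the 5 were 1.91 for WT1-AS, 2.61 for PAX6, 1.96 for RCN1, 0.37 for ELP4 and 0.84 for HIPK3. The others were TP73 (3.02), PAX8 (1.71), SP1 (0.39) and, of the WT1 targets, AREG (3.07), PDGFA (3.15), CDKN1A (2.94) and CSF1 (1.57).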

How the results depend on the processing

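Of 180 values of the 4 tested member genes under alternatives, 168 kept their direction and side of the threshold, 11 lost and 1 gained a call, and none turned. WT1 in G-K562 stayed between 1.34 and 1.43 over V-K562 and between 1.14 and 1.27 over B-K562 on the log2 scale. Quantile normalization ended the calls of WT1 (0.11) and PHB2 (0.02) in B-K562 over V-K562 and of WTAP between G-K562 and B-K562 (-0.02). The last was also lost in limma without the trend (-0.15), and the change of WTAP in G-K562 over V-K562 gained a call when all 9 libraries shared the fit (0.15). Leaving out 1 library gave 0.12 to 0.15 for PHB2 in B-K562 and -0.17 to -0.13 for WTAP between G-K562 and B-K562. The counts of genes called over all lists together stayed within 1.5 times their values. Of 810 counts of single lists under alternatives, 16 moved further. Quantile normalization gave, in B-K562 over V-K562, 2 lower genes of adenosine methylation in place of 1, 1 lower prohibitin gene in place of 0 and 2 higher EGR genes in place of 1, and between G-K562 and B-K562 8 higher WT1-binding genes in place of 4 and 1 higher gene of adenosine methylation in place of 0. The 1 lower gene of adenosine methylation in B-K562 was lost without B-K562 replicate 1. The 1 higher prohibitin gene in G-K562 was lost without G-K562 replicate 2 or 3 or V-K562 replicate 2 or 3, without the trend and without the filter. The 2 lower iron-sulfur genes there became 1 without G-K562 replicate 3 or V-K562 replicate 2, and 1 EGR gene was lower without G-K562 replicate 2. With a value of at least 10 in every library, 5 in place of 8 neighbours of WT1 were higher in G-K562 over B-K562. ATAC-seq calls near the member genes were less stable. The 3 higher regions in B-K562 became 5 without scaling, 0 with scaling within GC bins (chosen after seeing the data), 1 with the replicate block and 0 to 1 when a library was left out. The GC bins left 3 higher regions in G-K562 over V-K562 and turned the CIAO1 start in B-K562 to -0.03. A window of 10 kb gave 8 higher regions in G-K562 over V-K562, 6 in G-K562 over B-K562 and 1 lower region in B-K562. A lower region, 1 in number, was called in G-K562 over V-K562 with the replicate block or with all 9 libraries, and leaving out a library gave 0 to 1 there and between G-K562 and B-K562. For RNA-seq, correlations of deviations between libraries of the same replicate number were -0.08 to 0.136, within the -0.16 to 0.208 between different numbers. For ATAC-seq they were 0.007 to 0.121, all above 0, against -0.083 to 0.047 between different numbers. Replicate numbers may thus pair the ATAC-seq libraries weakly, and the main fits did not use them. The replicate block changed no call of a member gene, but it changed the counts of ATAC-seq regions as given above. The cause of these changes was not tested. With 3 libraries per line and summit pileups under 100 at most of these regions, a miss of the threshold does not show that the lines were alike.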

Other observations

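The starts of 3 neighbours of WT1, named after their values were seen, had an ATAC-seq region with a peak in every library. At HIPK3, a kinase gene, the pileup was 132 to 158 in G-K562 and 80 to 106 in B-K562, against 70 to 94 in V-K562, and it rose in G-K562 over V-K562 by 0.46 on the log2 scale (limma, adjusted p = 0.03). At EIF3M, a translation initiation factor gene, it was 273 to 311, 203 to 220 and 134 to 165 in the same order of lines, and it rose by 0.34 in B-K562 (adjusted p = 0.033) and 0.61 in G-K562 (adjusted p = 0.0033), while EIF3M transcripts fell by 0.17 in G-K562 (adjusted p = 0.019). At QSER1 it was 51 to 55, 55 to 59 and 46 to 51 and passed no test. EGR4, which was too low to be tested, was at 0 or 1 in V-K562 and B-K562 and at 6, 7 and 5 in G-K562.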
